A study of Mus musculus with 2 samples.

Results

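The liver endothelial markers are 34 genes chosen by symbol: 13 typical of liver sinusoidal endothelium, 17 found in endothelium in general, and 4 for angiocrine ligands, the signals that endothelial cells send to hepatocytes. All 34 were among the 21878 gene symbols of the count tables, and all had enough counts to be compared (at least 20 summed over both libraries). The tissue was liver of FVB/N mice that had received c-Myc by hydrodynamic injection, in which a large volume forced into the tail vein carries DNA into hepatocytes. PolyA RNA was sequenced in 2 libraries, 1 from a mouse liver without treatment (untreated) and 1 with TSA, which the labels do not spell out. Both groups carried c-Myc, and no liver without it was analysed here. The labels give neither the age of the mice, nor the dose or time of treatment, nor the promoter that drove c-Myc, nor whether a library came from 1 mouse or a pool, nor whether the liver sampled was tumour. The design text gives the question as the effect of TSA in a liver cancer model induced by c-Myc.

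Liver sinusoids are lined by a specialised endothelium with open pores and no continuous basement membrane. These cells clear waste from blood through scavenger receptors such as the stabilins. They also send WNT, R-spondin and BMP ligands to hepatocytes, which set the enzyme pattern around the central vein and the output of the iron hormone hepcidin. In chronic injury and in liver tumours the lining can lose sinusoidal features and take on those of ordinary capillaries, which is called capillarization.

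The untreated library held 17281523 counts and the TSA library 17088227. Hepatocyte genes took a far larger part of the TSA library: the summed level of 12 hepatocyte markers was 5522 FPKM (fragments per kilobase of gene model, scaled to the total of the library) without treatment and 60325 FPKM with TSA. Levels are given as counts and as deposited FPKM, the untreated library first where a pair of values is given, and a fold is the ratio of counts after TMM scaling with its 95% counting interval in parentheses. Because the scaling matters here, a fold with total-count scaling is added where it changes a call. Genes whose ratio reached 2 in either direction, with an interval that left out 1, were called higher or lower. With 1 library per group there is no replicate check and no test between conditions, and intervals cover counting error only. In bulk liver, fewer cells of a type and less RNA per cell cannot be told apart.

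The endothelial genes were mostly higher with TSA, and the sinusoidal ones by far more than the general ones. With TMM scaling 26 of the 34 were called higher and none lower, where 26.0% of the 13027 genes compared were called higher and 27.4% lower. With total counts 21 were called higher and 3 lower, where 16.0% of all genes were called higher and 48.7% lower. All 4 angiocrine genes and 12 of the 13 sinusoidal genes were higher with TMM scaling, against 10 of the 17 general genes. With total counts it was all 4 angiocrine, 10 sinusoidal and 7 general genes, and the 3 lower ones were all general. Together the 34 genes took 0.0487% (0.0476 to 0.0497) of counts without treatment and 0.156% (0.154 to 0.158) with TSA, by the exact Clopper-Pearson interval.

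**Figure D1:**
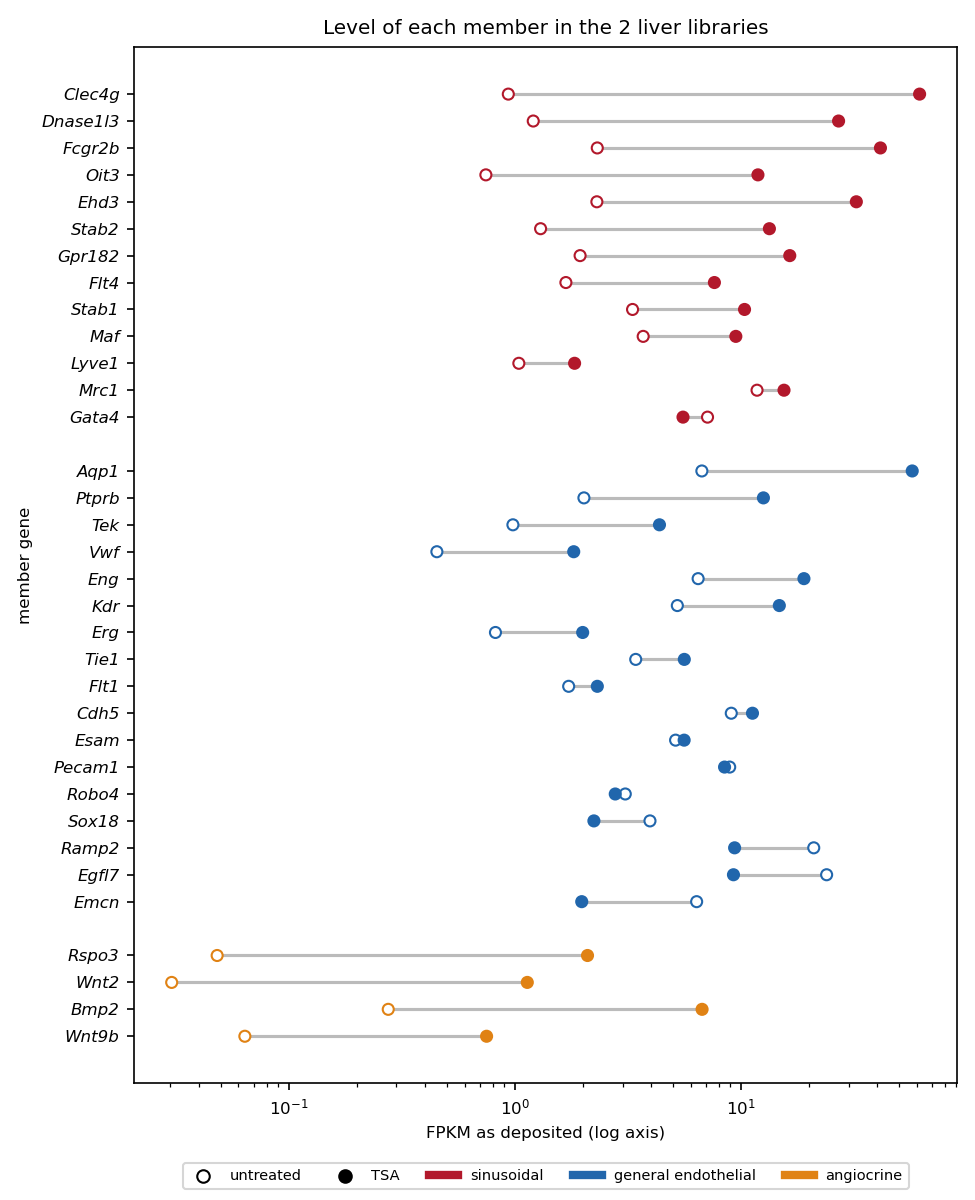
Deposited FPKM (log axis) of each member gene in the untreated library (open circles) and the TSA library (filled circles), 1 library each, coloured by group and sorted by ratio. *Clec4g* moved from 0.937 to 61.8 FPKM, whereas *Pecam1* stood at 8.94 and 8.48 FPKM and *Emcn* moved from 6.38 to 1.98 FPKM.

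*Clec4g*, for the C-type lectin LSECtin of sinusoidal endothelium, was read 20 times (0.937 FPKM) in the untreated and 1305 times (61.8 FPKM) in the TSA library. This made it 119-fold (76.8 to 196) higher. In FPKM it ranked 27 among the 34 genes in the untreated library and 1 in the TSA library. *Stab2*, for the scavenger receptor stabilin-2 that takes up hyaluronan, had 183 counts (1.30 FPKM) and 1861 counts (13.4 FPKM). It was 18.6-fold (15.9 to 21.7) higher. Its relative *Stab1*, for stabilin-1, which macrophages also make, had 459 counts (3.32 FPKM) and 1420 counts (10.4 FPKM). *Stab1* was 5.65-fold (5.08 to 6.29) higher, a smaller ratio than that of *Stab2*, with intervals that do not overlap.

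Of the other endocytic receptors, *Fcgr2b*, for the inhibitory Fc receptor that clears immune complexes in the sinusoid, had 62 counts (2.32 FPKM) and 1097 counts (41.5 FPKM). It was 32.3-fold (25.0 to 42.4) higher. *Mrc1*, for the mannose receptor, is shared with macrophages and differed least among these receptors, with 1085 counts (11.8 FPKM) and 1412 counts (15.5 FPKM). It was 2.38-fold (2.19 to 2.57) higher with TMM scaling and 1.32-fold with total counts, which is not a call. *Lyve1*, for a hyaluronan receptor of sinusoids and lymphatic vessels, was scarce in both libraries, with 47 counts (1.04 FPKM) and 82 counts (1.84 FPKM). It was 3.18-fold (2.20 to 4.66) higher with TMM scaling and 1.76-fold with total counts, again not a call.

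A group of less known sinusoidal markers had large ratios. *Dnase1l3*, for a secreted DNA-degrading enzyme, had 87 counts (1.21 FPKM) and 1929 counts (27.1 FPKM), 40.5-fold (32.6 to 50.8) higher. *Oit3*, for a protein with a zona pellucida domain, had 35 counts (0.746 FPKM) and 553 counts (11.9 FPKM), 28.8-fold (20.5 to 41.8) higher. *Ehd3*, for an ATPase of endocytic recycling, had 146 counts (2.31 FPKM) and 2029 counts (32.5 FPKM), 25.4-fold (21.4 to 30.2) higher. These 3 genes are known mainly from sinusoidal endothelium in the liver. *Gpr182*, for an atypical receptor that binds chemokines, had 57 counts (1.95 FPKM) and 477 counts (16.5 FPKM), 15.3-fold (11.6 to 20.5) higher. *Flt4*, for the VEGF-C receptor VEGFR3, had 170 counts (1.68 FPKM) and 763 counts (7.65 FPKM), 8.19-fold (6.93 to 9.73) higher.

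The transcription factor genes of the sinusoidal group differed from each other. *Maf*, for c-MAF, a factor of sinusoidal endothelium and also of macrophages and T cells, had 233 counts (3.70 FPKM) and 592 counts (9.51 FPKM), 4.64-fold (3.98 to 5.42) higher. *Gata4*, for the factor that keeps sinusoidal endothelium from turning into continuous capillary, is also active in other liver cells. Its values were 457 counts (7.13 FPKM) and 352 counts (5.55 FPKM). It was the only sinusoidal member called under neither scaling. TMM scaling put it 1.41-fold (1.22 to 1.62) above the untreated level and total counts 1.28-fold (1.11 to 1.48) below it.

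The angiocrine ligand genes had between 2 and 17 counts in the untreated library. *Rspo3*, for the R-spondin that amplifies WNT signals around the central vein, had 2 counts (0.0483 FPKM) and 86 counts (2.10 FPKM), a ratio of 78.5-fold (21.1 to 658). *Wnt2* had 3 counts (0.0304 FPKM) and 111 counts (1.14 FPKM), a ratio of 67.5-fold (22.5 to 332). *Wnt9b* had 5 counts (0.0640 FPKM) and 58 counts (0.751 FPKM), a ratio of 21.2-fold (8.57 to 67.6). WNT2 and WNT9B are the WNT ligands by which central vein and sinusoidal endothelium sustain the hepatocytes around it. *Bmp2*, for the ligand that, with BMP6, drives hepcidin production, had 17 counts (0.276 FPKM) and 411 counts (6.74 FPKM), 44.1-fold (27.2 to 76.5) higher. With so few reads in the untreated library, the sizes of the WNT and R-spondin ratios are loosely bounded, but all 4 were also called higher with total counts.

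**Figure D2:**
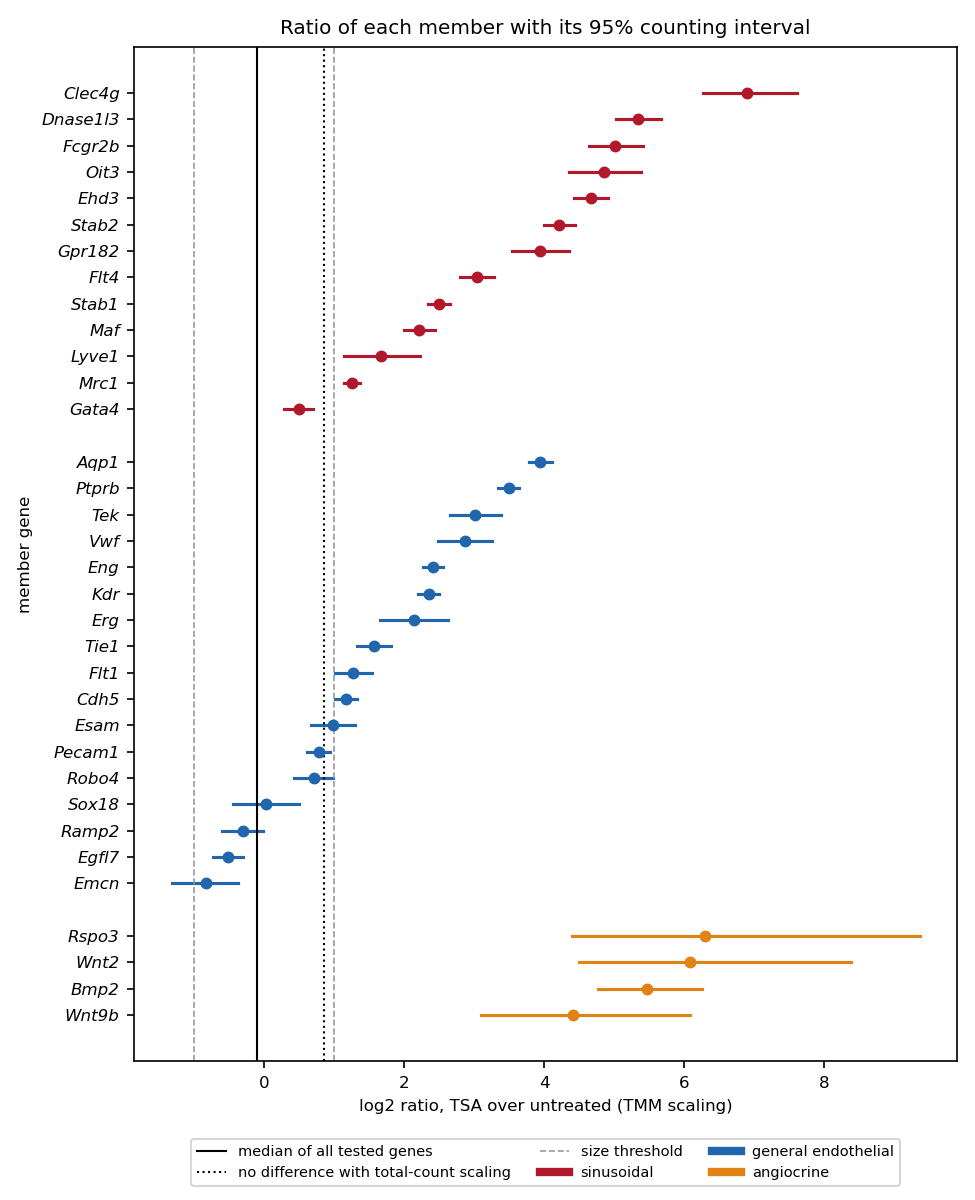
Log2 ratio of TSA over untreated for each member gene with TMM scaling, with its 95% counting interval as a bar. The solid line is the median of all tested genes (log2 -0.11), the dotted line marks where total-count scaling gives no difference, and the dashed lines mark the 2-fold threshold; 12 of 13 sinusoidal genes and 10 of 17 general genes lie beyond it on the higher side.

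The general endothelial genes did not move as a block. Their ratios ran from *Aqp1* and *Ptprb*, whose intervals start at 13.7-fold and 10.2-fold higher, to *Emcn*, *Egfl7* and *Ramp2*, which stood below the untreated level. Among the growth factor receptors, *Kdr*, for the main VEGF receptor VEGFR2, had 496 counts (5.24 FPKM) and 1386 counts (14.8 FPKM), 5.10-fold (4.60 to 5.66) higher. *Flt1*, for the VEGF-binding receptor VEGFR1, had 213 counts (1.73 FPKM) and 282 counts (2.32 FPKM), 2.42-fold (2.02 to 2.90) higher with TMM scaling and 1.34-fold with total counts. *Kdr* was thus higher by a larger ratio than *Flt1*, with intervals apart. *Tek*, for the angiopoietin receptor TIE2, had 80 counts (0.982 FPKM) and 352 counts (4.37 FPKM), 8.03-fold (6.28 to 10.4) higher. *Tie1*, for its co-receptor, had 230 counts (3.43 FPKM) and 373 counts (5.63 FPKM), 2.96-fold (2.50 to 3.50) higher with TMM scaling and 1.64-fold with total counts.

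*Ptprb*, for the phosphatase VE-PTP that holds back TIE2, had 451 counts (2.02 FPKM) and 2775 counts (12.6 FPKM), 11.2-fold (10.2 to 12.4) higher. *Eng*, for the BMP and TGF-beta co-receptor endoglin, had 538 counts (6.48 FPKM) and 1563 counts (19.0 FPKM), 5.30-fold (4.80 to 5.86) higher. *Robo4*, for a receptor that stabilises vessels, had 224 counts (3.08 FPKM) and 200 counts (2.79 FPKM). It was not called under either scaling. *Ramp2*, for the partner that turns the receptor of *Calcrl* into an adrenomedullin receptor, had 317 counts (21.0 FPKM) and 140 counts (9.40 FPKM). It was 1.24-fold (1.01 to 1.52) below the untreated level, and was called lower with total counts at 2.24-fold. *Calcrl* itself, with 85 and 284 counts, was 6.10-fold (4.77 to 7.86) higher, so the genes of the 2 subunits moved apart.

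The 3 junction genes among the members differed little in FPKM. *Cdh5*, for VE-cadherin, had 634 counts (9.08 FPKM) and 778 counts (11.3 FPKM), 2.24-fold (2.01 to 2.49) higher with TMM scaling and 1.24-fold with total counts. *Pecam1*, for CD31, had 601 counts (8.94 FPKM) and 564 counts (8.48 FPKM), and was not called under either scaling. *Esam*, for an endothelial adhesion molecule, had 165 counts (5.15 FPKM) and 178 counts (5.62 FPKM), at 1.97-fold (1.58 to 2.45) just under the size threshold. In FPKM these 3 genes were nearly level between the libraries, and the call on *Cdh5* rests on the scaling. *Cldn5*, a junction gene outside the membership named after its value was seen, had 54 and 112 counts. It was 3.79-fold (2.71 to 5.34) higher with TMM scaling and 2.10-fold with total counts, a call under both.

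Of the transcription factor genes, *Erg*, for an ETS factor that maintains endothelial identity, had 52 counts (0.822 FPKM) and 125 counts (2.0 FPKM), 4.39-fold (3.15 to 6.19) higher. *Sox18*, for a SOX factor of developing vessels, had 111 counts (3.97 FPKM) and 62 counts (2.24 FPKM) and was not called, at 1.02-fold (0.735 to 1.40) of the untreated level. *Vwf*, for the clotting protein von Willebrand factor of larger vessels and platelets, had 71 counts (0.453 FPKM) and 283 counts (1.82 FPKM), 7.27-fold (5.59 to 9.57) higher. *Aqp1*, for a water channel that bile ducts and red cells also make, had 321 counts (6.73 FPKM) and 2705 counts (57.4 FPKM), 15.4-fold (13.7 to 17.3) higher. Erythroid markers were higher in the same library in all 6 cases compared, with *Hba-a1*, for alpha globin, at 5.38-fold and *Hbb-bs*, for beta globin, at 4.71-fold. Their part in the *Aqp1* ratio was not tested.

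Besides *Ramp2*, a pair of general members lay below the untreated level by intervals that left out 1. *Egfl7*, for a secreted protein of the endothelial matrix, had 674 counts (24.0 FPKM) and 258 counts (9.29 FPKM), 1.43-fold (1.24 to 1.66) below the untreated level. *Emcn*, for the sialomucin endomucin of veins and capillaries, had 163 counts (6.38 FPKM) and 50 counts (1.98 FPKM), 1.79-fold (1.29 to 2.50) below it. Neither was called with TMM scaling, and both were called lower with total counts, at 2.58-fold and 3.22-fold.

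The promoters of 2 sinusoidal members with large ratios and of 2 general members not called with TMM scaling are shown because *Erg* and *Gata4* code for factors of the ETS and GATA families, whose binding letters can be looked for. Sequences were matched by symbol to RefSeq promoters on GRCm38.p6 for 19 of the 34 genes. Each is given for the 250 bases before the start, 5′ to 3′ on the gene's strand, with capitals marking the ETS letters GGAAG or their reverse complement. The *Clec4g* window is chr8:3720652-3720901, minus strand, and the *Stab2* window is chr10:87007943-87008192, minus strand. The *Emcn* window is chr3:137340828-137341077, plus strand, and the *Robo4* window is chr9:37401722-37401971, plus strand.
Clec4g: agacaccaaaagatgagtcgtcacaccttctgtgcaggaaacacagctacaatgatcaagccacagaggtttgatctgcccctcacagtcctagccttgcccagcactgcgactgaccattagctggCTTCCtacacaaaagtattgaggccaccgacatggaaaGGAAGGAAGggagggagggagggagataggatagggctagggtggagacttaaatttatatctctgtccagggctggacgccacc
Stab2: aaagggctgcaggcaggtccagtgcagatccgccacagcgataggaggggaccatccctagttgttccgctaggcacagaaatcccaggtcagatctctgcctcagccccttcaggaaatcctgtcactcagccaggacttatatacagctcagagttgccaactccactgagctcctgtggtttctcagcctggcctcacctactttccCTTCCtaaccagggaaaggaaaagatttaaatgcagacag
Emcn: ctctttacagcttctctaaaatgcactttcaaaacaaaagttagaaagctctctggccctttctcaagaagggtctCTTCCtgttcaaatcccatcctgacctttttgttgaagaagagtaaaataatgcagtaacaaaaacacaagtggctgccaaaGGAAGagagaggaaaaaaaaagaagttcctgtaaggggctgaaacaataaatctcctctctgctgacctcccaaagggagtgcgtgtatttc
Robo4: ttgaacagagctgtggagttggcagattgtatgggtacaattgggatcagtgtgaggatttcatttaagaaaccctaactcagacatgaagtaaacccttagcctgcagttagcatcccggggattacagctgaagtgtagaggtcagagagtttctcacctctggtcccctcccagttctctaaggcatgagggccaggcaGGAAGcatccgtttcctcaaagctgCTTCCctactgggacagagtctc

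The ETS letters occurred 3 times in the *Clec4g* window, once in that of *Stab2*, and 2 times each in those of *Emcn* and *Robo4*, with overlapping matches counted. They were present for 6 of 7 sinusoidal and 9 of 10 general members with an entry, and in 64.1% of all 32851 promoter windows of that length. The GATA letters AGATAA, searched on both strands, were present for none of the 7 sinusoidal members, for 1 of the 10 general ones and in 9.99% of all windows. A member was counted if any of its windows held the letters, whereas the shares over all are per window. The 2 kinds of share are thus not strictly alike. Such a match describes the letters in this window and not a bound site.

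The comparison of sinusoidal with general genes does not depend on scaling, since a common factor moves both. Measured from the median of all genes, the median log2 ratio was 4.04 for the sinusoidal genes and 1.38 for the general ones. The difference of 2.66 corresponds to a 6.32-fold larger median ratio for the sinusoidal genes. The groups overlapped: 11 of 13 sinusoidal genes lay above the general median and 1 of 17 general genes, *Aqp1*, lay above the sinusoidal median. *Mrc1* and *Gata4* were the sinusoidal genes below the general median.

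Within each library the makeup of the endothelial transcripts differed. Sinusoidal genes held 36.3% (35.2 to 37.3) of the summed sinusoidal and general counts without treatment and 53.5% (52.9 to 54.1) with TSA. Per length the difference was larger, from 26.5% of summed FPKM to 59.9%. The summed level of the sinusoidal genes was 39.5 and 255 FPKM, and that of the general genes 109.5 and 171 FPKM. In the untreated library the 5 members of highest FPKM were *Egfl7*, *Ramp2*, *Mrc1*, *Cdh5* and *Pecam1*. In the TSA library they were *Clec4g*, *Aqp1*, *Fcgr2b*, *Ehd3* and *Dnase1l3*. The cut at 5 is arbitrary: *Mrc1* ranked 3 without treatment and 8 with TSA, and *Eng* 8 and 6.

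Set against *Cdh5*, as a gene of all endothelium, the members parted into those above and below it. The fold relative to *Cdh5* had an interval above 1 for 10 of 13 sinusoidal, all 4 angiocrine and 8 of 16 other general genes. *Clec4g* stood at 10.3% of the FPKM of *Cdh5* without treatment and at 549% with TSA, 53.2-fold (33.7 to 88.3) higher relative to it. *Stab2* stood at 14.3% and 119%, 8.29-fold (6.87 to 10.02) higher. *Mrc1*, at 130.0% and 138%, was the sinusoidal gene that most nearly kept its ratio to *Cdh5*. On the other side, 6 general genes and *Gata4* were lower relative to *Cdh5*. *Emcn* stood at 70.3% and 17.6%, 4.0-fold (2.84 to 5.70) lower, *Egfl7* at 264% and 82.4%, 3.21-fold (2.67 to 3.85) lower, and *Ramp2* at 232% and 83.4%, 2.78-fold (2.21 to 3.51) lower. *Sox18* was 2.20-fold (1.57 to 3.10), *Robo4* 1.37-fold (1.10 to 1.72) and *Pecam1* 1.31-fold (1.12 to 1.53) lower relative to *Cdh5*.

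**Figure D3:**
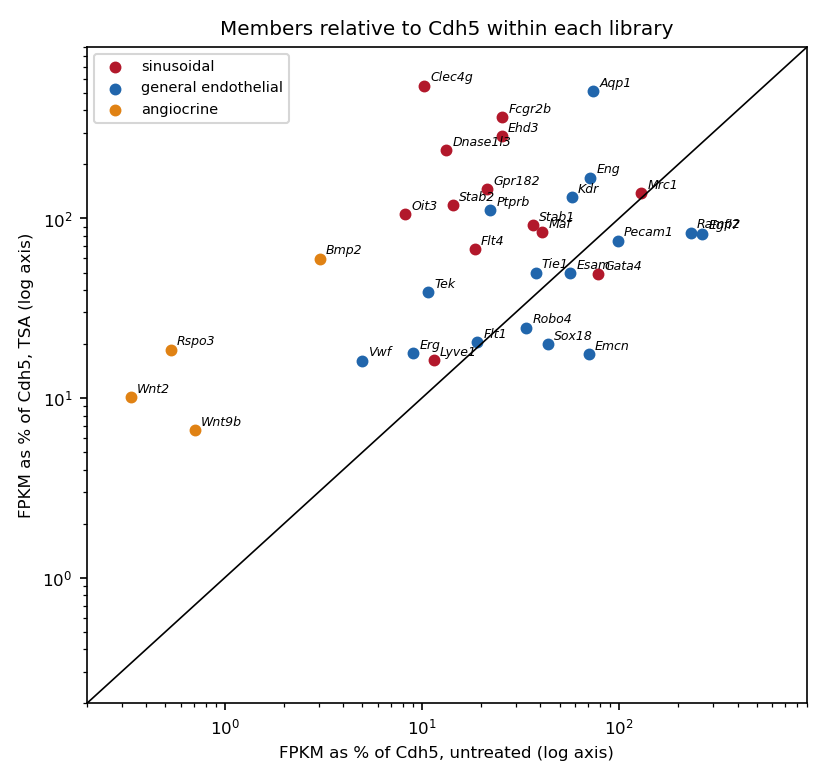
FPKM of each member as a percentage of that of *Cdh5*, in the untreated library (x, log axis) and the TSA library (y, log axis); the line marks equal percentages. Sinusoidal and angiocrine genes lie mostly above the line, by up to 53.2-fold for *Clec4g*, and *Emcn*, *Egfl7* and *Ramp2* lie below it.

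Further endothelial genes outside the membership also differed. Their counts stand beside 26.0% of all genes called higher and 27.4% called lower (16.0% and 48.7% with total counts). Of 18 other sinusoidal genes 13 were higher and 1 lower (10 and 2 with total counts), with a median log2 ratio of 2.35 above that of all genes. *Hpgd*, for a prostaglandin-degrading enzyme that hepatic endothelium makes, had 120 and 2272 counts, 34.6-fold (28.8 to 41.9) higher, and *Plxnc1*, for a semaphorin receptor, was 34.9-fold (25.6 to 48.9) higher. *Igfbp4* was 4.48-fold higher, and *Ctsl*, for a lysosomal protease of many cells, was not called. Of 31 other general endothelial genes 17 were higher and 3 lower (8 and 6 with total counts), with a median of 1.26. *Gja4*, for the gap junction protein connexin 37, was 13.0-fold (9.09 to 19.3) higher, *Podxl*, for podocalyxin, 3.03-fold (2.72 to 3.38) lower, and *Ets2* was not called with TMM scaling but lower with total counts.

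Genes known from capillaries, sprouting vessels and tumour vessels mostly went the other way. Of 24 such genes 17 were lower and 2 higher (19 and 1 with total counts). Of all genes 27.4% were lower and 26.0% higher (48.7% and 16.0% with total counts). The median log2 ratio of the list was -1.74 relative to all genes. *Col4a1*, for a basement membrane collagen that many cells make, had 14265 and 862 counts, 9.07-fold (8.46 to 9.72) lower, and *Hspg2*, for perlecan, was 3.81-fold (3.57 to 4.07) lower. *Kcne3*, a marker of sprouting tip cells, had 112 and 2 counts, a ratio of 30.7-fold (8.30 to 256) lower, and *Apln*, for the vessel ligand apelin, 116 and 3 counts, a ratio of 21.2-fold (7.07 to 104) lower. The next genes are named after their values were seen. *Esm1*, another tip cell gene, had 109 counts without treatment and 0 with TSA. With the 0 replaced by a floor of 3 counts its ratio was 19.9-fold lower, with an interval from 15.9-fold upward. *Cd34*, a sign of capillarized sinusoids, had 329 and 77 counts, 2.34-fold (1.82 to 3.04) lower. The 2 higher genes of the list were *Ly6a*, with 84 and 247 counts, 5.37-fold (4.17 to 6.96) higher, and *Adm*, with 21 and 27 counts. *Adm* was 2.35-fold (1.28 to 4.37) higher with TMM scaling and not called with total counts. *Vwf*, a gene of larger vessels given above with the general members, was 7.27-fold higher. *Plvap*, for the diaphragm protein of fenestrae, had 611 and 622 counts and was not called.

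In the VEGF and angiopoietin system lower calls were no more frequent than among all genes. Of 12 ligands, co-receptors and hypoxia factors 6 were higher and 3 lower (6 and 4 with total counts), with a median of 1.31. Of all genes 26.0% were higher and 27.4% lower (16.0% and 48.7% with total counts). *Vegfa*, for the ligand of the receptors that *Kdr* and *Flt1* encode, had 837 counts (11.6 FPKM) and 3995 counts (56.0 FPKM), 8.71-fold (8.08 to 9.40) higher. *Nrp1*, for its co-receptor, was 13.2-fold (11.9 to 14.8) higher and *Epas1*, for the hypoxia factor HIF-2 alpha, 15.7-fold (14.2 to 17.5) higher. The 2 angiopoietin genes that follow are named after their values were seen. *Angpt2*, for the TIE2 ligand of remodelling vessels, had 118 and 27 counts, 2.39-fold (1.57 to 3.79) lower, while its receptor gene *Tek* was higher. *Angpt1* went the other way, with 7 and 50 counts, a ratio of 13.0-fold (5.88 to 34.1) higher, and was also called with total counts.

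Notch genes, which in vessels control sprouting and arterial fate, were called lower more often than higher. In bulk liver the cells that gave these reads cannot be told apart. Of 12 compared 5 were lower and 1 higher (8 and 0 with total counts), where 27.4% of all genes were lower (48.7% with total counts), with a median of -0.72. *Jag2* had 255 and 3 counts, a ratio of 46.6-fold (15.8 to 227) lower, and *Hes1*, for a target of Notch, was 4.12-fold (2.99 to 5.80) lower. *Notch1* and *Notch2* were not called with TMM scaling. *Dll4*, for the ligand of tip cells, named after its value was seen, had 193 and 31 counts, 3.41-fold (2.33 to 5.16) lower.

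Genes of the pathways that the angiocrine ligands act on were higher in part. Among all genes 26.0% were higher and 27.4% lower (16.0% and 48.7% with total counts). Of 24 genes of the BMP pathway 12 were higher and 1 lower (10 and 5 with total counts), with a median of 1.43. *Hamp*, for hepcidin, had 207 and 22547 counts, 199-fold (173 to 229) higher, its copy *Hamp2* had 3 and 387 counts, and *Tfr2*, for a sensor of iron-loaded transferrin, was 14.5-fold (13.6 to 15.4) higher. Reads of *Hamp* and *Hamp2* may be split between the copies. *Bmp6*, for the partner ligand of BMP2, named after its value was seen, had 26 and 145 counts, 10.2-fold (6.67 to 16.1) higher. The common targets of BMP signals, likewise named after their values were seen, were split. *Id2* was 3.52-fold, *Id3* 6.53-fold and *Atoh8* 125-fold higher with TMM scaling, *Id1* was not called and *Smad7* was 2.64-fold (1.95 to 3.61) lower. With total counts *Id2* was not called. Of 19 receptors and feedback targets of WNT and R-spondin 11 were higher and 1 lower (8 and 4 with total counts), with a median of 1.57. *Notum*, for a secreted WNT inhibitor, had 16 and 917 counts, 105-fold (64.1 to 184) higher, *Fzd8* was 63.9-fold (41.5 to 104) higher, and the co-receptor genes *Lrp5* and *Lrp6* were not called with TMM scaling. The target genes *Axin2*, with 4 and 75 counts, and *Lgr5*, with 5 and 162 counts, named after their values were seen, were 34.2-fold (12.8 to 129) and 59.1-fold (24.8 to 185) higher. Other genes of this list, named in the same way, were split. *Rnf43* was 7.93-fold (6.58 to 9.62) higher and *Tcf7* was not called under either scaling. *Znrf3*, with 566 and 233 counts, was not called with TMM scaling but 2.40-fold lower with total counts.

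**Figure D4:**
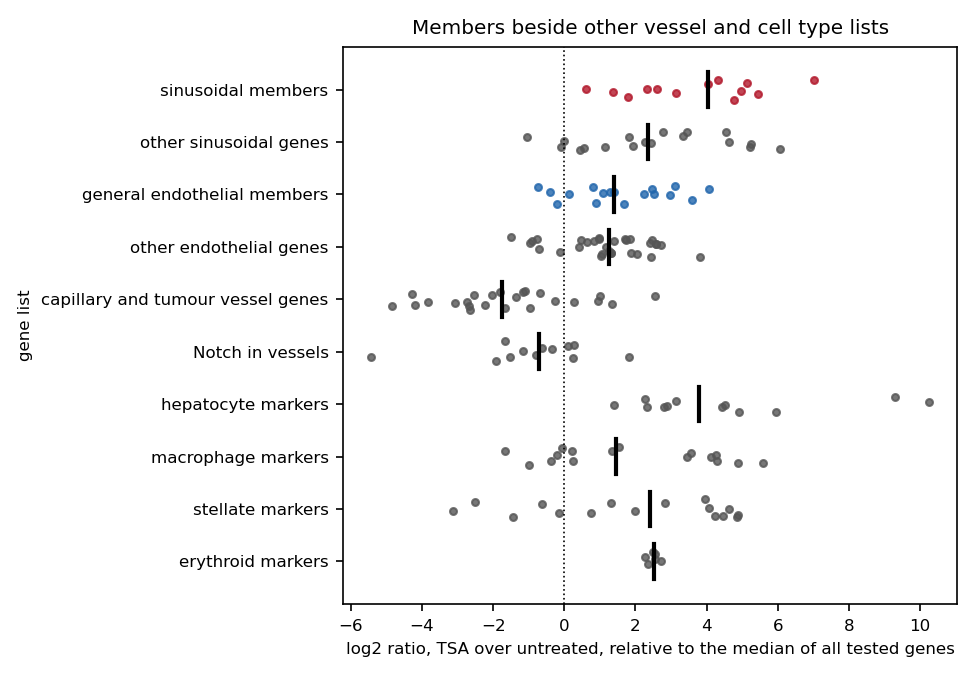
Log2 ratio of TSA over untreated, measured from the median of all tested genes, for each gene (points) of 10 lists, with list medians as bars; points are spread vertically for legibility. The sinusoidal members have a median of 4.04, the general members of 1.38, the capillary and tumour vessel genes of -1.74 and the hepatocyte markers of 3.79.

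Markers of other liver cells also differed between the libraries, and their part in the endothelial ratios was not tested. For these and the rarer cell types below, the shares over all genes were 26.0% higher and 27.4% lower (16.0% and 48.7% with total counts). All 12 hepatocyte markers were higher with TMM scaling (median 3.79) and 11 with total counts. *Alb*, for albumin, was at 57.1-fold and *Apob* at 8.18-fold, and *Tat* and *Pck1* had the largest ratios. *Hnf4a*, named after its value was seen, was 2.46-fold (2.39 to 2.52) higher with TMM scaling. With total counts it was 1.36-fold higher, which is not a call. Macrophage markers were split, 9 of 16 higher and 2 lower (7 and 5 with total counts), and their summed level was 926 FPKM without treatment and 470.2 FPKM with TSA. *Clec4f*, the defining marker of resident Kupffer cells, was 44.3-fold (36.3 to 54.5) higher, *Cd14* 27.1-fold (19.0 to 40.1) higher, *Cd5l* was not called with TMM scaling but 2.53-fold lower with total counts, and *Lyz2*, for the lysozyme of all macrophages, was 2.16-fold (2.05 to 2.28) lower. Of 16 stellate cell markers 10 were higher and 3 lower (9 and 5 with total counts; 155 and 213 FPKM summed), with *Reln* 26.8-fold (22.5 to 32.0) higher, *Hand2* 27.4-fold (12.1 to 76.6) higher, *Col1a1* 6.13-fold (5.42 to 6.96) lower and *Col3a1* not called with TMM scaling. None of the hepatocyte, macrophage and stellate markers was at 0 in either library.

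The rarer cell types rested on fewer reads. Of 6 cholangiocyte markers compared 3 were higher and 2 lower (1 and 3 with total counts). Summed over 8 they reached 47.1 and 9.74 FPKM. *Krt7* was 31.6-fold and *Epcam* 12.3-fold lower. The 3 higher ones are named after their values were seen. *Krt19*, with 9 and 54 counts, was 10.95-fold (5.36 to 25.2) higher. *Sox9*, with 6 and 15 counts, and *Tspan8*, with 7 and 15, were not called with total counts. *Cftr* and *Sctr*, with 4 and 1 counts without treatment and 0 with TSA, were too scarce to compare. Of 7 lymphocyte markers 5 were higher and none lower (4 and 1 with total counts; 5.44 and 7.63 FPKM summed over 12), with *Cd4* not called with TMM scaling but 3.09-fold lower with total counts. The 6 erythroid markers compared, *Alas2* and *Klf1* among them, summed to 151 and 423 FPKM with the 3 others listed, of which *Epb42* was at 0 without treatment and *Hba-a2* at 0 with TSA. Of 2 platelet markers compared *Itga2b* was higher and *Itgb3* was not called (1.28 and 3.50 FPKM summed over 8), and *Gp1ba* and *Gp1bb* were at 0 without treatment and *Gp6* with TSA. All 5 lymphatic markers compared were higher (4 with total counts), with a median of 4.85, beside 4.04 for the sinusoidal members. Summed over 6, the lymphatic markers reached 21.0 and 39.3 FPKM. Among these *Prox1* is also made by hepatocytes and *Reln* by stellate cells, and *Ccl21a*, for a chemokine of lymphatic vessels, had 1 and 58 counts. *Lyve1* and *Flt4* belong to lymphatic vessels as well.

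Of the 34 members 11 were listed as also known from other liver or blood cells (*Stab1*, *Lyve1*, *Fcgr2b*, *Mrc1*, *Maf*, *Gata4*, *Eng*, *Aqp1*, *Vwf*, *Flt1* and *Bmp2*). The list is not complete, and further members such as *Pecam1* may be made by blood cells too. Leaving the listed genes out therefore does not remove every other source. Without them 16 of 23 members were called higher, and the median difference between sinusoidal and general genes was larger, at 3.69 in place of 2.66. The sinusoidal share of counts was then 14.3% without treatment and 55.2% with TSA, a wider gap than with all members.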

How the data were processed

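The data are polyA RNA sequencing of 2 mouse liver libraries, 1 per group. RNA was extracted with the mirVana kit, per the labels' protocols. The submitters' processing notes list HISAT2, Bowtie2, Trimmomatic and DESeq without saying what each did. For the build, annotation, strand setting and counting of reads, no source used here gives an entry. Values of the deposited counts are unscaled whole numbers per gene symbol. The deposited FPKM are those counts per gene model length and library total, checked for 14271 genes within 0.1 base.

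Counts were scaled by TMM in edgeR 4.0.16 (R 4.3.3; factors 1.34 untreated, 0.744 TSA), and intervals are exact conditional binomial (scipy 1.17.1). TMM moved every log2 ratio up by the same amount against total counts: the median of all genes was -0.11 and -0.96. Fold intervals relative to *Cdh5* are exact conditional odds ratios. Alternatives were DESeq2 1.42.0 size factors, upper quartiles, total counts, count minimums, other thresholds, FPKM with 0.1 added and other memberships. The functions were tested on simulated data. The members and the 19 gene lists were chosen with earlier results of these data known. All members are named; in other lists, those with at least 50 counts that were the 2 most counted or the 2 most different, other genes being marked. A few genes this selects are not reported here.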

Additional observations from a re-analysis of the deposited data

How the results depend on the processing

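DESeq2 size factors and upper quartiles each called 27 members higher and none lower; other count minimums, thresholds and FPKM gave 21 to 29 higher. With total counts 3 members were called lower, as with FPKM plus 0.1, and with a threshold of 1.5 it was 1. Total counts turned the direction of *Gata4* (ratio 0.779), *Pecam1* (0.949), *Robo4* (0.903) and *Sox18* (0.565); the other 30 kept their direction, of which 5 lost a call and 3 gained one.

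Without the members listed as known from other cells 16 were called higher of the 23 left. The sinusoidal median was then 4.78, the general 1.09 and their difference 3.69. With the angiocrine genes added the sinusoidal median was 4.52. The sinusoidal share in the untreated library was 14.3% without the members so listed, 26.5% by FPKM and 29.5% without the most abundant gene of each group. In the TSA library it was 55.2%, 59.9% and 56.0% in that order, and 54.6% with the angiocrine genes. Against genes of like length, an alternative added after the data were seen, the difference was 2.58. No paired analysis was possible because each group has 1 library, and leaving out a library leaves no comparison. Few reads limit *Rspo3*, *Wnt2* and *Wnt9b*.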
